A study of Caenorhabditis elegans with 12 samples.

Results

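The RNA of *C. elegans* strain BS1080, which carries a *gld-1::gfp* transgene, was compared with that of the wild-type strain N2 before any transcript was selected. The comparison used the pulldown inputs of both strains, 2 of the 12 libraries of the study, and covered 46723 genes after removal of ribosomal RNA. Both inputs came from young adults whose RNA and proteins had been crosslinked in the living animal with short-wave UV light (cXL, without a nucleotide analog). Worms were then ground and lysed, RNA was taken from the lysate, and worm ribosomal RNAs were depleted with RNase H. N2 carries no transgene and served the study as the strain without a tagged target. Each strain had 1 library, and 3 further libraries made without a pulldown are given beside them as levels only, namely the cXL input of DG3913, a strain with *gfp*-tagged *lin-41*, the BS1080 input crosslinked after labelling with 4-thiouridine (PAR-XL), and BS1080 total RNA taken from worms directly, which is named with the PAR-XL set but described as not crosslinked. By the study's methods, worms labelled with 4-thiouridine grew in liquid culture and were harvested some hours later than unlabelled worms, which grew on plates. The PAR-XL input thus differs from the cXL inputs in culture and age as well as in crosslink. A single library a side gives no replicate error. Intervals are therefore 95% intervals of the counting error of both libraries, and culture, harvest and library preparation cannot be told apart from strain.

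GLD-1 is a STAR domain RNA-binding protein of the germline that represses the translation of many maternal mRNAs. It is needed for germ cells to stay in meiosis and become oocytes, and its level is highest in the meiotic part of the gonad. Hermaphrodites make sperm before they switch to oocytes, and adult intestine supplies the oocytes with yolk proteins, so whole-worm RNA of young adults mixes germline, sperm and somatic transcripts. In such bulk RNA, fewer cells of a type and less RNA per cell cannot be told apart.

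The BS1080 input held 21474214 estimated counts and the N2 input 13570763, of which 18542857 and 12227263 remained without ribosomal RNAs (13.7% and 9.90% of counts). Levels are TPM, which count transcripts relative to the library's total after division by length, summed per gene and rescaled to 1000000 per library. A gene was compared when its mean TPM over both libraries was at least 1 and both together held at least 20 estimated counts, and 11701 genes met this. A count under 3 was set to 3 in a ratio. Germline markers (19 of 19 tested), oocyte markers (21 of 21) and muscle markers (23 of 23) were all above the limit for testing.

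The transcriptomes of both strains were close. Log2 TPM of BS1080 and N2 had a squared correlation of 0.952 across the 11320 genes above 1 TPM in both, where genes are not replicates. The median BS1080 over N2 ratio was 1.00, and 93.7% of genes lay within 2-fold. In BS1080, 575 genes (4.91%) were at least 2-fold higher and 167 (1.43%) at most 0.5-fold. The whole counting interval lay beyond 2-fold for 93 and 38 of them. The calls were concentrated in short genes and in genes of low level. Among the 10052 tested genes whose longest transcript has at least 700 nt, a limit chosen after seeing the data, 330 (3.28%) were at least 2-fold higher and 115 (1.14%) at most 0.5-fold.

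**Figure D1:**
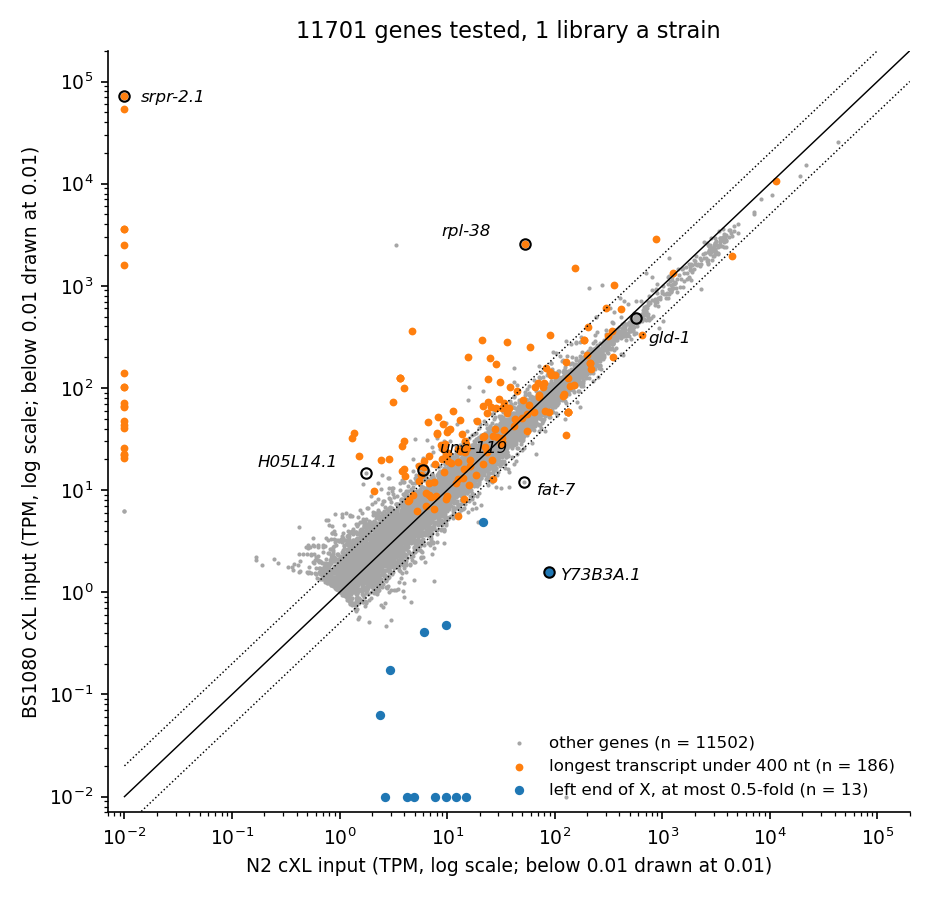
TPM of the 11701 tested genes in the N2 cXL input (x axis) and the BS1080 cXL input (y axis), both on a log scale, with a solid line at equal levels and dotted lines at 2-fold. The 13 genes of the left end of chromosome X (blue) lie below the cloud, and many of the 186 genes with a longest transcript under 400 nt (orange) lie above it.

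Endogenous *gld-1* RNA was lower in BS1080 than in N2, and the transgene supplied a similar though smaller level beside it. *gld-1* (WBGene00001595, T23G11.3) lies on the plus strand of chromosome I at 7695661 to 7698154 (WBcel235). Endogenous *gld-1* had 272 TPM (10192 counts) and the transgene 217 TPM (11433 counts) in the BS1080 cXL input, a transgene over endogenous ratio of 0.800 (0.779 to 0.821). The transgene thus held 44.4% of the *gld-1* TPM in this library, 46.9% in the BS1080 PAR-XL input and 43.4% in BS1080 total RNA. N2 had 569 TPM (12435 counts), all endogenous, and the DG3913 input had 595 TPM.

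Endogenous *gld-1* alone in BS1080 was 0.478 times the N2 level (0.466 to 0.491), and both sources together were 0.861 times that level (0.842 to 0.880). The sum in the other BS1080 libraries was 316 TPM (PAR-XL) and 341 TPM (total RNA). The summed ratio depended on the unit. It was 1.15 in CPM, the counts scaled to the library total without division by length, where the median of all genes was also 1.15, and 0.994 when TPM were rescaled over genes of at least 700 nt, where the median of all genes was 1.16. Relative to that median it was 0.858 in TPM, 0.998 in CPM and 0.858 after the rescaling. Genes of at least 700 nt at a mean of 300 to 1000 TPM had a median TPM ratio of 0.823 (5th to 95th percentile 0.675 to 1.04). The summed *gld-1* ratio of 0.861 lay inside that range, so total *gld-1* was not low for its level, while the endogenous 0.478 lay below it. The transgene had more counts than the endogenous gene but fewer TPM, and how far the division of reads common to both sets these values was not tested.

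**Figure D2:**
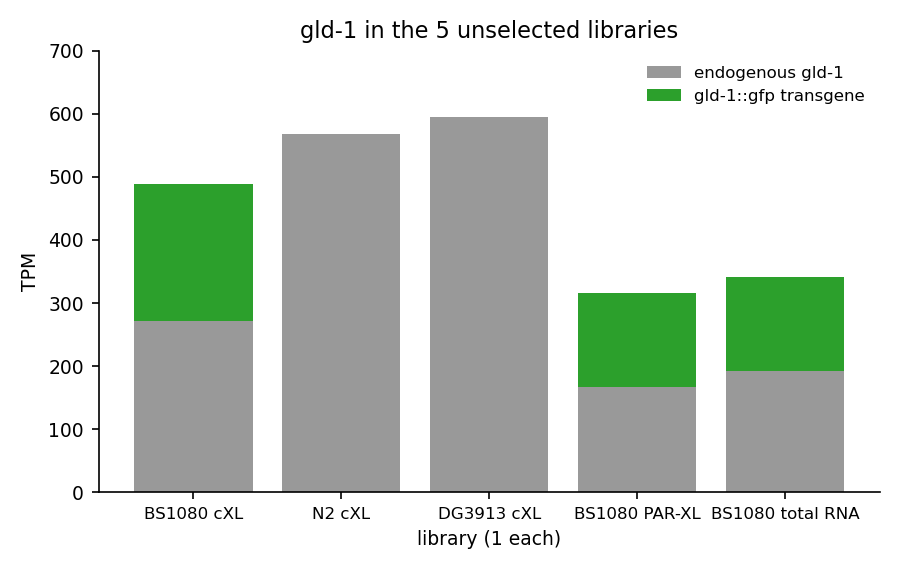
TPM of *gld-1* (y axis, from 0) in the 5 libraries made without a pulldown, 1 library a bar, split into endogenous *gld-1* (grey) and the *gld-1::gfp* transgene (green). BS1080 shows 272 TPM endogenous and 217 TPM transgenic *gld-1* beside 569 TPM in N2.

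Of 4 further transcripts looked up, 1 was past 2-fold. These were *unc-119*, chosen here, and *lin-41*, *alg-1* and *tbb-2*, which the study names. *unc-119* (WBGene00006843, chromosome III, 10902648 to 10908930), which encodes a conserved protein expressed in neurons and is widely used as a selection marker in worm transgenesis, had 15.9 TPM in BS1080 (198 counts) and 5.92 TPM in N2 (42 counts), a ratio of 2.69 (1.93 to 3.75). It had 11.02 TPM in DG3913, 23.8 in the BS1080 PAR-XL input and 35.6 in BS1080 total RNA, so N2 was the lowest of the 5. It was the only one of 17 tested neuron markers past 2-fold, and the list had a median of 0.978. *lin-41*, an oocyte TRIM-NHL protein gene, had 175 and 205 TPM (0.853, 0.831 to 0.875). The β-tubulin gene *tbb-2*, a reference transcript of the study, had 889 and 1197 TPM (0.742, 0.728 to 0.757), and the Argonaute gene *alg-1* had a ratio of 0.763 (0.708 to 0.823).

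mRNAs known as GLD-1 targets were close to the rest of the transcriptome. All 14 listed targets were tested, and 0 were past 2-fold in either direction (against 3.28% higher and 1.14% lower of all genes of at least 700 nt). At 20 to 50 TPM these shares were 0.280% and 0.399%, and at 100 to 300 TPM 0 and 0.147%. The 0 calls in 14 genes therefore say little. Their median ratio was 0.939 against 1.00 for all genes. Highest was *gna-2*, which acts in eggshell chitin synthesis, with 144 TPM in BS1080 and 95.8 in N2 (1.50, 1.40 to 1.61), followed by the sex determination gene *tra-2* with 31.2 and 25.5 TPM (1.23, 1.13 to 1.32). The lowest was *spn-4*, a maternal RNA-binding protein gene, with 508 and 637 TPM (0.798, 0.777 to 0.820). The yolk receptor gene *rme-2* had 527 and 642 TPM (0.821, 0.806 to 0.836), and the Notch receptor gene *glp-1* had 78.8 and 76.2 (1.03, 0.993 to 1.08). The targets thus lay on both sides of 1.

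*gna-2* is also the next tested gene downstream of *gld-1*. Of 15 other tested genes within 30 kb of *gld-1*, 1 was past 2-fold and the median ratio was 1.15 (0.710 to 2.12). That gene was *T23G11.1*, beyond *gna-2*, with 27.7 TPM in BS1080 and 13.1 in N2 (2.12, 1.55 to 2.90). *T23G11.4*, on the other side, had 25.7 and 14.2 TPM (1.82, 1.42 to 2.32). DG3913 had 29.7 TPM of *T23G11.1*, 147 TPM of *gna-2* and 50.2 TPM of *T23G11.4*, levels at or above those of BS1080.

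The lowest ratios lay together at the left end of chromosome X. Of 13 genes at or below 0.1-fold in BS1080, 12 lay in the first 250 kb of X and 1 elsewhere. In that stretch 18 genes were tested, 13 were at most 0.5-fold (against 1.43% of all genes), and they spanned 16541 to 207723 (WBcel235). Their summed level was 7.63 TPM in BS1080 (134 counts) and 187 TPM in N2 (2801 counts), a ratio of 0.0408 (0.0343 to 0.0486). The sum was 204 TPM in DG3913, 4.11 in the BS1080 PAR-XL input and 3.87 in BS1080 total RNA. The 13 genes were picked on the cXL inputs of BS1080 and N2, so the difference between those inputs follows from the choice. In the libraries not used for the choice, DG3913 was near N2, and the PAR-XL input and total RNA were low. How many of all tested genes are arranged in this way was not counted.

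*Y73B3A.1* (chromosome X, 42875 to 46918) had the most reads, 1.59 TPM in BS1080 (54.1 counts) and 88.2 TPM in N2 (1753 counts), a ratio of 0.0180 (0.0137 to 0.0236). It had 72.0 TPM in DG3913, 0.0575 in the PAR-XL input and 0.0442 in total RNA. *Y73B3A.4* had 0 counts in BS1080 and 251 in N2 (14.9 TPM), at least 144-fold lower at a floor of 3 counts, with 24.98 TPM in DG3913. *chkr-1* had 0 counts in BS1080 and 128 in N2 (9.81 TPM), at least 74.0-fold lower, and was at 0 TPM in both other BS1080 libraries. *T08D2.8*, *T08D2.2*, *Y73B3B.5*, *Y73B3A.9* and *Y73B3A.20* also had 0 counts in the BS1080 cXL input. *tmed-12*, of a family of cargo receptors of the secretory pathway, had under 3 counts against 22.4 in N2, and 0.477, 9.83 and 16.47 TPM in BS1080, N2 and DG3913.

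On the estimated counts, these genes did not form an unbroken block. *Y73B3A.18*, between *Y73B3A.20* and *Y73B3A.2*, had 166 TPM in BS1080, 225 in N2 and 162 in DG3913 (ratio 0.736), but 7.58 TPM in the PAR-XL input and 5.24 in total RNA. *Y73B3A.2* had 7.89 and 9.83 TPM and *Y73B3A.3* had 2.79 and 5.19 TPM, with 8.78 and 4.52 in the PAR-XL input. *CE7X_3.4*, nearest to the chromosome end, had a ratio of 0.733 (0.514 to 1.04). The 5 tested genes of the stretch that stayed above 0.5-fold had ratios of 0.505 to 0.803. *Y73B3A.10* was at most 0.5-fold but kept 4.93 TPM in BS1080 against 21.4 in N2, with 0 TPM in both other BS1080 libraries. The BS1080 counts of the genes named here were not whole, such as 4286.78 for *Y73B3A.18*, 189.094 for *Y73B3A.2* and 41.8625 for *Y73B3A.10*. N2 counts of genes low in BS1080 were not whole either, such as 251.179 for *Y73B3A.4* and 128.209 for *chkr-1*. Reads of all these genes may be shared with similar transcripts elsewhere, so the levels in either strain need not come from the stretch itself. Neither this nor whether DNA of the stretch differs between the strains was tested.

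**Figure D3:**
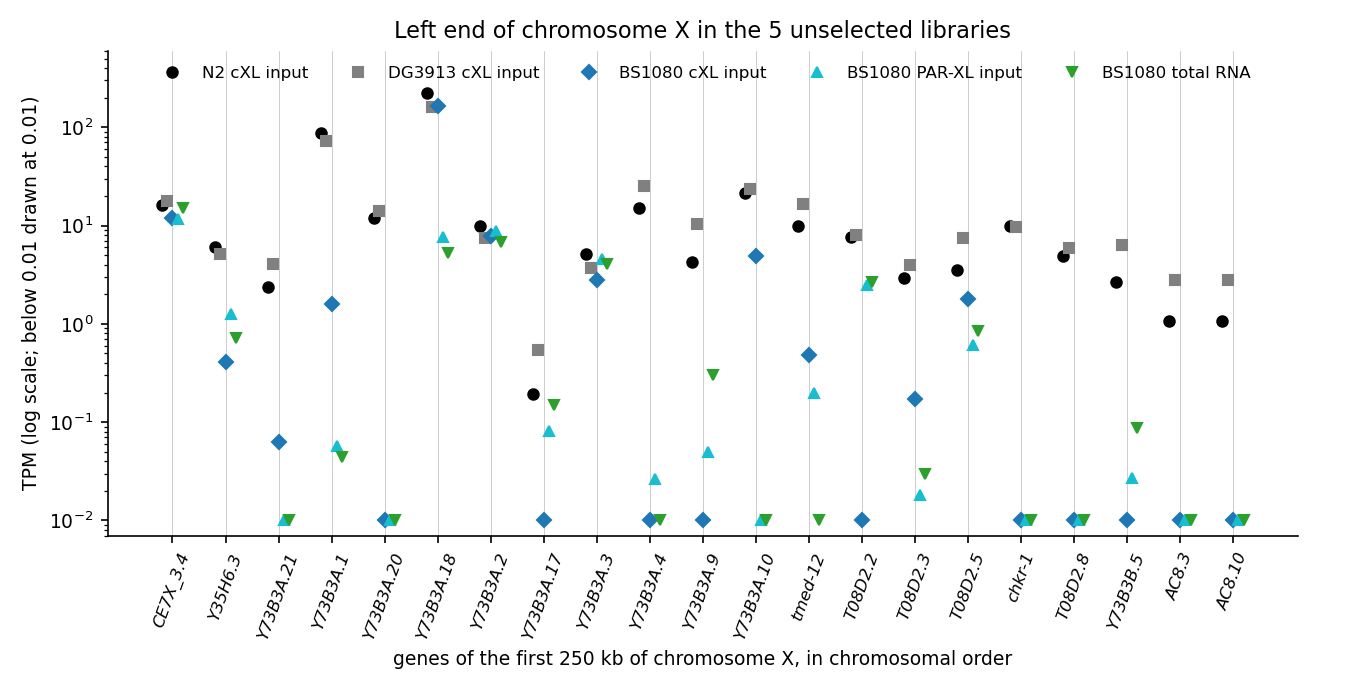
TPM (y axis, log scale, values below 0.01 drawn at 0.01) of the genes of the first 250 kb of chromosome X in chromosomal order, in the N2 and DG3913 cXL inputs (black, grey) and in the BS1080 cXL input, PAR-XL input and total RNA (blue, cyan, green). Most genes are far lower in all 3 BS1080 libraries, while *CE7X_3.4*, *Y73B3A.2* and *Y73B3A.3* are not.

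The rest of chromosome X was also slightly lower in BS1080. Beyond the first 250 kb, 1465 genes of X had a median ratio of 0.912, while the 10207 autosomal genes had a median of 1.02. Of these X genes 52 (3.55%) were at least 2-fold higher and 32 (2.18%) at most 0.5-fold, against 5.11% and 1.20% of autosomal genes. The median of single autosomes lay between 0.993 (III) and 1.04 (IV). Among genes with a longest transcript of at least 700 nt, the whole of X, its left end included, had a median of 0.901. X-linked genes are largely silent in the germline of *C. elegans* outside oocytes, and the part of cell type composition in the X median was not tested. Outside the left end of X, no run of 3 or more neighbouring tested genes of at least 700 nt was past 2-fold in 1 direction.

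Ratios were lower for genes of higher level, so lists of abundant genes sat below 1. Among genes with a longest transcript of at least 700 nt, the median ratio was 1.15 at a mean of 1 to 2 TPM, 1.01 at 20 to 50 TPM, 0.882 at 100 to 300 TPM and 0.787 above 1000 TPM. In the last class (95 genes) the central 90% of ratios ran from 0.634 to 0.930. At low level the spread was wider, and 12.6% of genes at 1 to 2 TPM were at least 2-fold higher. A single RNA class, described further on, held 12.8% of all TPM in BS1080 and 0 in N2. Rescaling TPM over genes of at least 700 nt moved the median of all genes to 1.16 (0.21 on the log2 scale). List medians are therefore read against all genes and, in a second way chosen after seeing the data, against the median of genes of at least 700 nt in the same class of TPM.

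**Figure D4:**
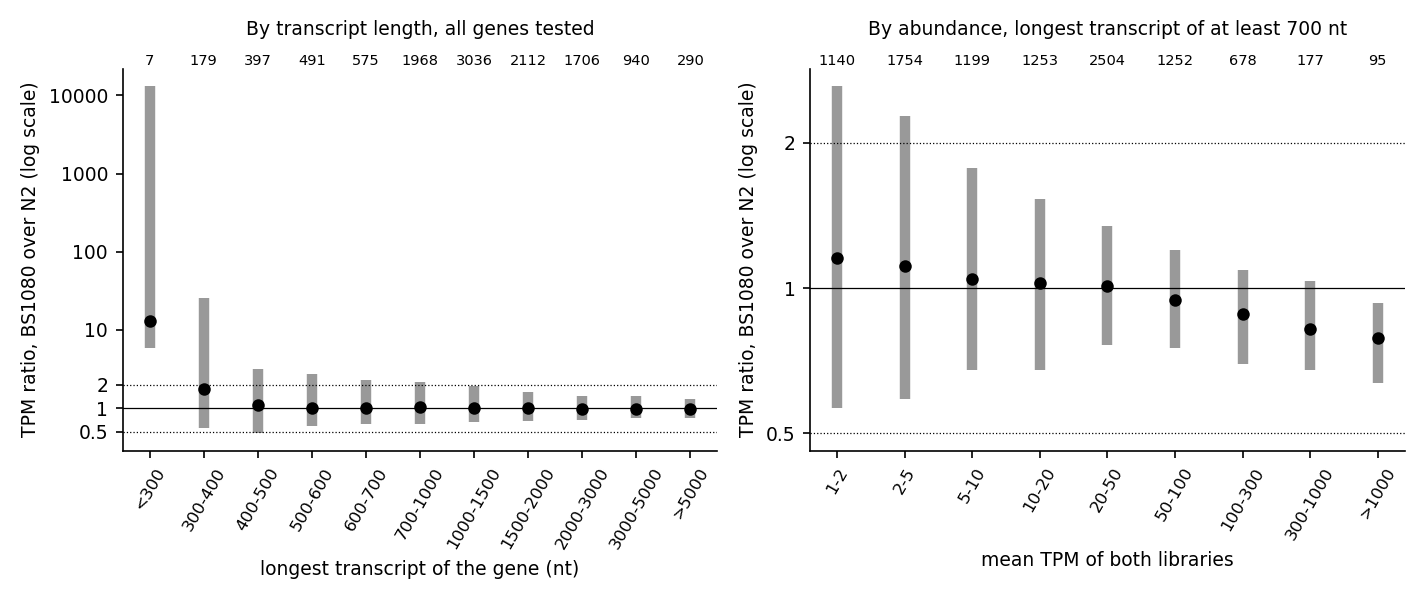
TPM ratio of BS1080 over N2 (y axis, log scale) by length of the longest transcript (left, all tested genes) and by mean TPM (right, genes of at least 700 nt), with points at the median, grey bars from the 5th to the 95th percentile and the number of genes above each bar. The median reaches 13.1 below 300 nt, is near 1 from 500 nt on, and declines from 1.15 at the lowest to 0.787 at the highest level.

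Sperm genes were higher in BS1080. Of 68 tested sperm markers, 61 had a ratio above 1, and the list had a median of 1.40. At least 2-fold higher were 12 and at most 0.5-fold 1 (against 4.91% and 1.43% of all genes). Most of the 68 are shorter than 700 nt, so all genes are not a like background. Of genes of any kind, 44.7% were at least 2-fold higher at 300 to 400 nt and 15.6% at 400 to 500 nt. Of the 23 with at least 700 nt, 3 were at least 2-fold higher and 0 at most 0.5-fold (against 3.28% and 1.14% of all genes of that length). The shorter ones include genes under 400 nt, whose levels cannot be compared on these tables. The major sperm proteins, the cytoskeletal proteins of the crawling nematode sperm, summed to 5366 TPM in BS1080 and 3407 in N2 (1.58, 1.53 to 1.62), with 3489 in DG3913, 7964 in the PAR-XL input and 8239 in total RNA. N2 was thus the lowest of the 5 libraries. Of their 27 tested genes 23 were above 1. *msp-56* had 1027 and 275 TPM (3.73, 3.43 to 4.05) and *msp-10* 50.1 and 125 TPM (0.402, 0.324 to 0.498), in a family of near-identical copies between which reads can be divided arbitrarily.

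These genes are short (384 to 573 nt), and short genes of any kind tended to higher ratios. The sperm genes of at least 700 nt were higher as well. Of 24 in the list of other sperm genes, 22 were above 1, 3 were at least 2-fold higher and 0 at most 0.5-fold (against 3.28% and 1.14% of all genes of that length). Their median was 1.38 against 0.998 for all genes of that length and 1.32 relative to genes of the same level. This list shares genes such as *spe-15* with the sperm markers, whose 23 members of that length had the same range (0.905 to 2.46), so it is not separate support. *spe-11*, whose product sperm bring into the egg, had 9.37 and 4.12 TPM (2.27, 1.55 to 3.33). The presenilin gene *spe-4* had 4.88 and 2.44 TPM (interval of the ratio 1.37 to 2.91), and *spe-10*, needed for sperm organelles, had 1.59 and 0.645 TPM on 30 and 7 counts (2.46, 1.08 to 5.61). *spe-15*, a myosin gene, had 22.6 and 15.9 TPM (1.42, 1.295 to 1.55), and the male germline Argonaute genes *alg-3* and *alg-4* had ratios of 1.48 (1.28 to 1.70) and 1.34 (1.18 to 1.53). All of these were higher still in the BS1080 PAR-XL input and total RNA, as *spe-11* was at 23.7 and 62.7 TPM. DG3913 was not higher than N2 throughout, with 14.5 TPM of *spe-15*, 6.54 of *alg-3* and 5.44 of *alg-4*, each below N2.

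Oocyte and yolk transcripts were lower relative to all genes, at levels where most genes were. Of 21 oocyte markers 0 were past 2-fold (against 3.28% higher and 1.14% lower of all genes of at least 700 nt). Few abundant genes of any kind were past 2-fold, so the 0 says little here. Of the 21, 1 was above 1, and the median was 0.848. Relative to genes of the same level the median was 1.01. The eggshell genes *cbd-1* (1072 and 1326 TPM), *cpg-1* (1532 and 1800) and *cpg-2* (1586 and 1883) had ratios of 0.809, 0.851 and 0.843. The 6 vitellogenins, yolk proteins made in the adult intestine, summed to 16464 TPM in BS1080 and 22759 in N2, and all 6 were below 1, with a median of 0.730 and of 0.927 relative to genes of the same level. *vit-2* had 5029 and 7109 TPM (0.707, 0.704 to 0.710) and *vit-6* 5326 and 7074 TPM (0.753, 0.750 to 0.756). DG3913 was like N2 with a sum of 22674 TPM, while the BS1080 PAR-XL input and total RNA had only 1935 and 2714 TPM.

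Other germline genes showed no member past 2-fold, at levels where few genes were. This held for the lists of germline markers (19 tested, median 0.905), P granule genes (18, 0.885), germ cell fate (26, 0.950), oocyte RNA regulators (18, 0.840), the oocyte cell cycle (14, 0.877), DNA replication (13, 0.910), Argonautes (16, 0.972) and the meiotic axis and synapsis (21, 1.13). Relative to genes of the same level these medians lay between 0.958 and 1.13. Of all genes of at least 700 nt, 0.280% were at least 2-fold higher and 0.399% at most 0.5-fold at 20 to 50 TPM. At 100 to 300 TPM the shares were 0 and 0.147%, so 0 calls in lists of 13 to 26 genes say little about the germline. The RNA helicase gene *cgh-1* had 921 and 1232 TPM (0.748, 0.736 to 0.760), while the cohesin gene *rec-8* had 62.1 and 63.3 TPM (0.981, 0.922 to 1.04) and *msh-5*, a meiotic crossover gene, 22.1 and 18.9 TPM (1.17, 1.08 to 1.27). For meiotic genes 17 of 21 were above 1.

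Cuticle and hypodermal genes were higher in the middle of their range and, like other abundant genes, lower at the top. Of 118 tested cuticle collagens, 76 were above 1, 11 were at least 2-fold higher and 2 at most 0.5-fold, against 3.28% and 1.14% of all genes of at least 700 nt, with a median of 1.25, or 1.29 relative to genes of the same level. Their sum was nevertheless lower, 45126 TPM in BS1080 against 51874 in N2 and 30181 in DG3913, because the abundant members were below 1. *col-124* had 4067 and 5072 TPM (0.802, 0.792 to 0.812) and *col-140* 3883 and 4662 TPM (0.833, 0.822 to 0.844). Both lay above the median of 0.787 for genes of at least 700 nt above 1000 TPM. Past 2-fold were *col-120* with 15.8 and 5.74 TPM (2.75, 2.02 to 3.76) and *col-186* with 3.71 and 0.911 TPM (4.07, 2.03 to 8.18), and *col-95* was lower with 38.2 and 81.6 TPM (0.468, 0.420 to 0.522).

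The hypodermis markers, which include collagens, had a median of 1.33 over 12 tested genes with 0 past 2-fold. *dpy-5* had 38.9 and 25.7 TPM (1.51, 1.27 to 1.80), *dpy-13* 46.6 and 33.1 TPM (1.41, 1.22 to 1.62), and the adult collagen *col-19* 1781 and 1983 TPM (0.898, 0.881 to 0.916). Among 11 molting genes 1 was past 2-fold, *mlt-8* with 3.78 and 1.49 TPM on 58 and 13 counts (2.54, 1.39 to 4.64). Muscle (23 tested, median 0.938), intestine (12, 0.864), somatic gonad (5, 0.984) and zygotic embryo markers (9, 0.930) held 1 gene past 2-fold in all. This was *ttn-1*, the gene of the giant muscle protein titin, with 7.17 and 20.4 TPM (0.351, 0.338 to 0.364) and 26.9 TPM in DG3913, although the muscle genes *unc-22* and *unc-89* had ratios of 1.05 and 1.06.

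**Figure D5:**
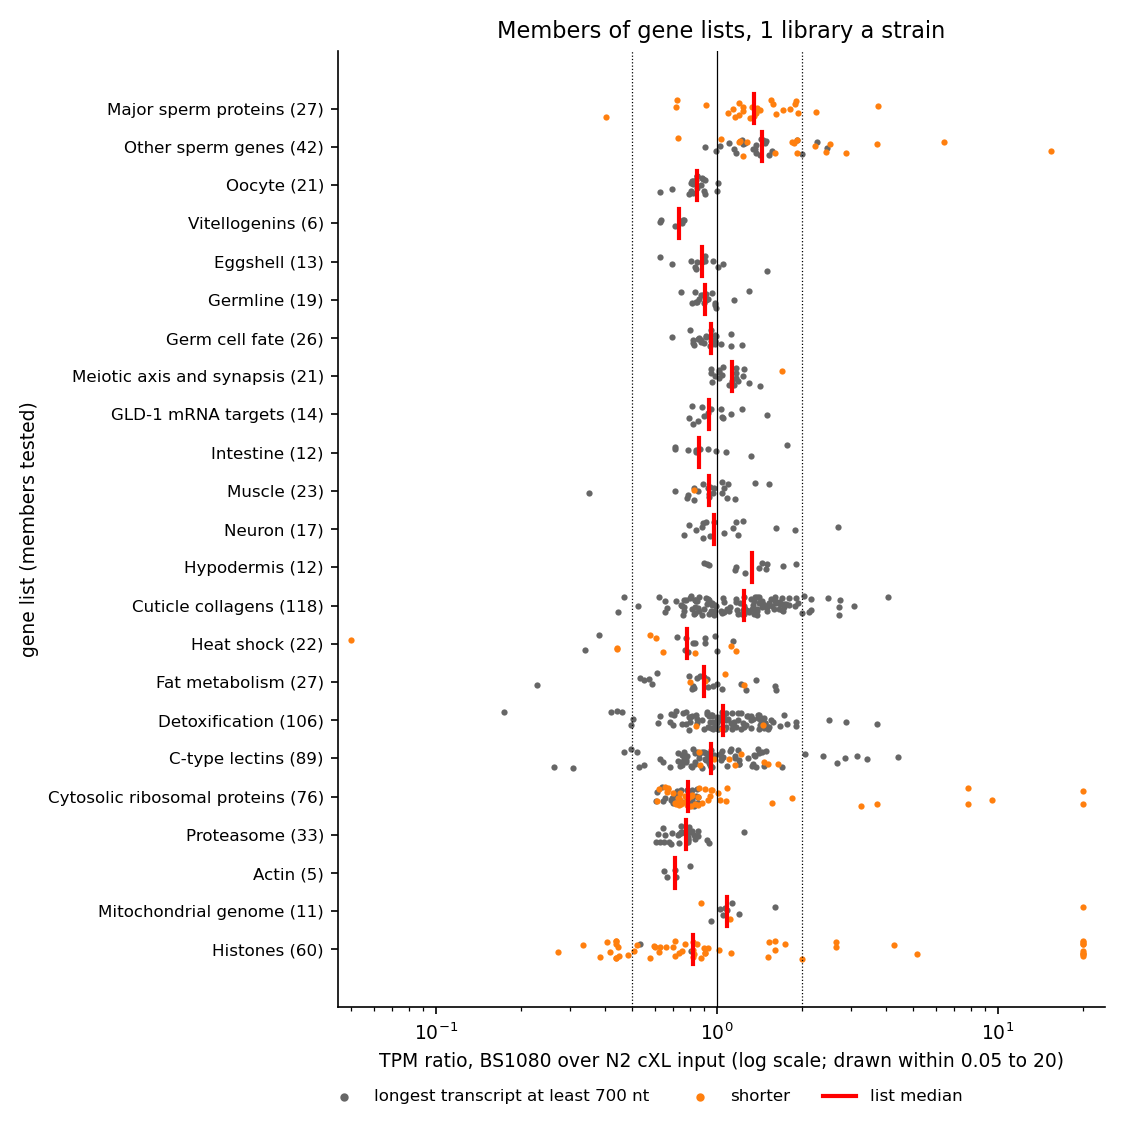
TPM ratio of BS1080 over N2 (x axis, log scale, drawn within 0.05 to 20) of each tested member of 23 gene lists, with members of at least 700 nt in grey, shorter ones in orange and the list median in red. Sperm genes and collagens lie mostly above 1, while vitellogenins, actins, proteasome and most ribosomal protein genes lie below it.

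Of 22 tested heat shock genes, 0 were at least 2-fold higher and 5 at most 0.5-fold (against 4.91% and 1.43% of all genes), with a median of 0.783. Over the 13 of at least 700 nt, the median relative to genes of the same level was 1.01, with 7 of the 13 above 1. *hsp-70*, an inducible HSP70 gene, had 10.8 and 28.4 TPM (0.382, 0.335 to 0.435), and DG3913 had 9.36. The 4 small heat shock genes of the *hsp-16.1* and *hsp-16.48* cluster on chromosome V are near-identical pairs, so their sum is given. It was 225 TPM in BS1080 (767 counts) and 478 TPM in N2 (766 counts), a ratio of 0.471 (0.426 to 0.521), with 273 TPM in DG3913, 393 in the PAR-XL input and 348 in total RNA. Within the cluster, *T27E4.8* had 0 counts in BS1080 and 196 in N2, and *T27E4.2* 430 and 187.

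The HSP70 pair *F44E5.4* and *F44E5.5* summed to 86.6 and 131 TPM (0.659, 0.626 to 0.693), with 80.3 TPM in DG3913. *F44E5.4* alone had 22.6 and 66.7 TPM (0.340, 0.312 to 0.370) and *F44E5.5* 63.9 and 64.7 TPM (0.987, 0.923 to 1.06). Of the constitutive chaperones, *hsp-90* had 1640 and 2002 TPM (0.819, 0.810 to 0.829) and *hsp-1* 1799 and 2273 TPM (0.791, 0.782 to 0.801). N2 was thus the highest of the cXL inputs for *hsp-70* and for both sums.

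Of 27 tested genes of fat metabolism 0 were at least 2-fold higher and 1 was at most 0.5-fold (against 1.43% of all genes), 8 were above 1, and the median was 0.900, or 0.978 relative to genes of the same level. The 1 gene past 2-fold was a desaturase gene. The Δ9 desaturase gene *fat-7* had 11.9 TPM in BS1080 (201 counts) and 52.1 TPM in N2 (503 counts), a ratio of 0.229 (0.194 to 0.269), with 57.5 TPM in DG3913, 3.53 in the PAR-XL input and 2.59 in total RNA. Its paralogs *fat-6* (303 and 517 TPM; 0.587, 0.567 to 0.608) and *fat-5* (7.64 and 14.3 TPM; 0.533, 0.458 to 0.621) had ratios above 0.5. So did *acs-2*, an acyl-CoA synthetase gene of β-oxidation (56.8 and 103 TPM; 0.5498, 0.518 to 0.584), the PEP carboxykinase gene *pck-1* (94.5 and 165 TPM; 0.571, 0.544 to 0.599) and the glyoxylate cycle gene *icl-1* (485 and 794 TPM; 0.611, 0.601 to 0.621). For *fat-6*, *acs-2*, *pck-1* and *icl-1* the ratio lay below the 5th percentile of genes of at least 700 nt at the same level (0.675 at 300 to 1000 TPM, 0.696 at 100 to 300, 0.751 at 50 to 100). DG3913 did not share 1 pattern with N2, as *acs-2* had 52.8 TPM and *icl-1* 438 TPM there, and in the other BS1080 libraries *acs-2* and *icl-1* were higher than in N2, at 182 and 1233 TPM in the PAR-XL input.

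Detoxification genes had 106 tested members, with a median of 1.05. Of these 3 were at least 2-fold higher and 5 at most 0.5-fold (against 4.91% and 1.43% of all genes). The xenobiotic-responsive cytochrome P450 genes of the *cyp-35A* group summed to 10.6 and 25.4 TPM (0.420, 0.360 to 0.489), with 25.8 TPM in DG3913. *cyp-35A2* had 7.40 and 17.7 TPM (0.419, 0.349 to 0.503) and *cyp-35A3* 0.804 and 4.61 TPM (0.175, 0.107 to 0.285), while the UDP-glucuronosyltransferase gene *ugt-44* had 16.49 and 5.74 TPM (2.87, 2.32 to 3.56). In innate immunity, 7 of 89 C-type lectins were at least 2-fold higher and 4 at most 0.5-fold (against 4.91% and 1.43% of all genes). Of 46 antimicrobial and lysozyme genes, many of them short, 6 were higher and 4 lower (against the same shares). Of the 18 antimicrobial and lysozyme genes of at least 700 nt, 2 were higher and 2 lower (against 3.28% and 1.14% of all genes of that length). The lysozyme gene *lys-7* had 73.4 and 161 TPM (0.456, 0.419 to 0.498) with 383 in DG3913. Of 131 nuclear hormone receptors 6 were higher and 0 lower, a share near the background of 4.91% and 1.43%. Of 74 tested neuropeptide genes 7 were higher and 2 lower (against 4.91% and 1.43% of all genes). Of the 23 with at least 700 nt only 1 was higher and 0 lower (against 3.28% and 1.14% of all genes of that length).

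Short RNAs had the highest ratios. The 5 SRP RNA genes, the RNA part of the signal recognition particle that guides secretory proteins to the endoplasmic reticulum, summed to 127913 TPM in BS1080 (121674 counts) and 0 in N2. *srpr-2.1* (299 nt) had 72215 TPM and *srpr-2.2* (299 nt) 54031 TPM, both with 0 counts in N2 and 0 TPM in DG3913. The SRP RNAs summed to 0.688 TPM in DG3913, 69172 in the BS1080 PAR-XL input and 24870 in total RNA. These values followed transcript length. kallisto subtracts about the mean fragment length from a transcript to get its effective length, and it subtracted 285 nt in BS1080, 313 nt in N2, 301 nt in DG3913, 220 nt in the PAR-XL input and 150 nt in total RNA.

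Of 184 genes with a longest transcript of 286 to 301 nt, 34 had at least 1 count in BS1080, 0 in N2, 7 in DG3913, 137 in the PAR-XL input and 134 in total RNA. Of 159 genes of 302 to 313 nt, 52 had a count in BS1080 and 17 in N2. In both cXL inputs, then, genes shorter than the subtracted length had few or no reads. Levels of RNAs with under 400 nt therefore cannot be compared between the strains on these tables, and *srpr-2.1* at 0 in N2 does not show that the RNA was absent. No count fell on any of the 257 miRNA, 637 tRNA or 15365 piRNA genes in either library.

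The short ribosomal protein genes and histones followed the same pattern. Of 21 genes of any kind with at least 50 counts in BS1080 and at most 3 in N2, 19 had a longest transcript under 400 nt. All 7 ribosomal protein genes at least 2-fold higher had a longest transcript of 293 to 377 nt, such as *rpl-38* with 2540 and 53.2 TPM (47.7, 34.5 to 66.0) and *rps-27* with 1481 and 155 TPM (9.53, 8.02 to 11.3). The 31 of at least 700 nt were all below 1 (median 0.782), as *rpl-4* with 2451 and 3567 TPM (0.687, 0.677 to 0.697). Of 60 tested histone genes, 58 of them under 700 nt, 14 were at least 2-fold higher and 13 at most 0.5-fold. The shares over all genes, most of which are longer, were 4.91% and 1.43%. The 8 histone genes of 312 nt summed to 8076 TPM in BS1080 and 69.7 in N2, whereas the 64 longer ones summed to 99700 and 136789 TPM (0.729, 0.725 to 0.732). The copies *H02I12.7* and *F54E12.5* had 5161 and 5172 counts in BS1080 and 0 and 5.37 in N2, but these are near-identical copies among which reads can shift. The identical copies *B0035.9* and *F54E12.3*, of 312 nt, each had 3879 counts in BS1080 and 0 in N2, at least 780-fold higher, and 0 TPM in DG3913.

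Abundant housekeeping genes of full length were lower by similar amounts. The 33 proteasome genes had a median of 0.776, with 1 above 1, and the 5 actins a median of 0.710, or 0.880 and 0.863 relative to genes of the same level. *act-1* had 2118 and 3264 TPM (0.649, 0.640 to 0.658). Genes of the mitochondrial genome went the other way, with 9 of 11 above 1 and a median of 1.09, or 1.26 over the 8 of at least 700 nt relative to genes of the same level.

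Single genes of at least 700 nt were chosen after seeing the data by the bound of the interval nearest to 1. Genes with a copy of the same length and the same estimated counts were left out. For genes chosen in this way, the order of the BS1080 and N2 cXL inputs follows from the choice. How many of all tested genes have all 3 BS1080 libraries on 1 side of both other strains was not counted. The highest was *H05L14.1* on chromosome I, with 14.6 TPM in BS1080 (654 counts) and 1.76 in N2 (46 counts), a ratio of 8.31 (6.16 to 11.2). It had 3.35 TPM in DG3913, 22.6 in the PAR-XL input and 55.7 in total RNA, so all 3 BS1080 libraries were above both other strains. The nearby *T22C1.11* had 17.5 and 7.24 TPM (2.42, 1.94 to 3.01), with 14.9 TPM in DG3913. The acyltransferase-like gene *oac-31* had 5.83 and 0.913 TPM (6.39, 4.09 to 9.99), with 1.76 in DG3913 and 34.6 in the PAR-XL input, and the nearby *F52F10.2* had 1.92 and 0.267 TPM on 62 and 5 counts (7.21, 2.90 to 17.9). *faah-2*, a fatty acid amide hydrolase gene, was the most abundant of them with 115 and 41.6 TPM (2.77, 2.57 to 2.99) and 75.6 TPM in DG3913, but 45.2 and 43.5 TPM in the other BS1080 libraries. The F-box gene *fbxa-192* had 17.5 and 5.22 TPM (3.35, 2.54 to 4.42), with 1.81 TPM in DG3913, 5.65 in the PAR-XL input and 7.51 in total RNA. The cell fusion gene *eff-1* had 3.82 and 0.841 TPM (4.54, 2.58 to 7.98).

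In all, 29 genes of at least 700 nt without such a copy had their whole interval above 2-fold and 27 below 0.5-fold, beside 10052 tested genes of that length. Genes with similar but not identical copies remain among them, as counts that are not whole show for *jmjd-3.3* (164.533 and 23.0918) and *enu-3.5* (380.395 and 357.483). Other acyltransferase-like genes were among the higher ones, *oac-20* with 10.5 and 3.135 TPM (3.34, 2.61 to 4.29) and *oac-6* with 11.98 and 3.90 TPM (3.07, 2.44 to 3.86). The histone demethylase gene *jmjd-3.3* had 2.93 and 0.703 TPM (4.18, 2.70 to 6.46) with 1.88 TPM in DG3913 and 24.4 TPM in the PAR-XL input. *trhr-1*, a neuropeptide receptor gene, had 8.21 and 2.29 TPM (3.58, 2.46 to 5.20). *ccch-3*, which encodes a CCCH zinc finger protein, had 30.4 and 9.36 TPM (3.25, 2.50 to 4.22) and 52.2 TPM in DG3913. N2 was the lowest cXL input for *jmjd-3.3*, *trhr-1* and *ccch-3*, but for *oac-20* DG3913 was lower still at 3.05 TPM.

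*pud-3* (93.7 and 21.6 TPM; 4.34, 3.56 to 5.28) belongs to a group of 6 *pud* genes that summed to 2462 and 1218 TPM (2.02, 1.93 to 2.11), with 3246 TPM in DG3913. The identical pair *F45D11.15* and *F45D11.16* each had 152 counts in BS1080 and 0 in N2, at least 29.3-fold higher, yet 0 TPM in both other BS1080 libraries. Together with their neighbour *F45D11.14* they summed to 28.9 and 10.1 TPM (2.87, 2.40 to 3.43), and to 38.9 TPM in DG3913, 228 in the PAR-XL input and 366 in total RNA.

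Lower outside the left end of X, beside *fat-7*, *cyp-35A3*, *ttn-1* and *hsp-70*, was *png-1*, which encodes a peptide N-glycanase that removes glycans from misfolded proteins. It had 4.92 TPM in BS1080 (210 counts) and 20.1 in N2 (502 counts), a ratio of 0.244 (0.208 to 0.287), with 17.4 TPM in DG3913, 6.94 in the PAR-XL input and 6.60 in total RNA. All 3 BS1080 libraries were therefore below both other strains, though the cXL input was below N2 by the choice of the gene. The same held for *H11L12.1* near the right end of X (10.8 and 37.9 TPM; 0.284, 0.224 to 0.360; 34.0 in DG3913, 7.41 and 9.80 in the other BS1080 libraries) and for *fipr-23* (4.90 and 19.4 TPM; 0.252, 0.175 to 0.364; 19.3 in DG3913, 5.09 and 9.25). It did not hold for *clec-17* (1.03 and 3.90 TPM), which had 30.6 TPM in the PAR-XL input. The BS1080 cXL counts of *png-1*, *H11L12.1* and *fipr-23* were not whole (209.885, 102.555 and 41.5758), so their reads may be divided with similar genes. *fipr-22*, of the same family as *fipr-23*, went the other way with a ratio of 1.86.

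Several of the lower genes lay on chromosome X, away from its left end. *pkhm-2* had 15.96 TPM in BS1080 and 37.01 in N2 (0.431, 0.394 to 0.472), with 61.2 TPM in DG3913 and 12.3 and 12.6 TPM in the other BS1080 libraries. *tbc-1*, of the family of Rab GTPase-activating proteins, had 11.9 and 25.9 TPM (0.459, 0.406 to 0.519) and 47.9 TPM in DG3913. *flwr-1* had 19.4 and 43.9 TPM (0.443, 0.374 to 0.524) and 82.6 TPM in DG3913, and *gem-1*, a monocarboxylate transporter-like gene, had 1.33 and 4.92 TPM (0.270, 0.203 to 0.358). For these 4 genes all 3 BS1080 libraries were below N2 and DG3913. They were chosen for a low cXL ratio, and the share of all genes with this order was not counted. On the autosomes, *Y51A2D.13* had 10.5 and 31.8 TPM (0.329, 0.286 to 0.378), with 25.5 TPM in DG3913, while *enu-3.5* had 14.9 and 37.3 TPM (0.399, 0.345 to 0.461), with DG3913 near BS1080 at 16.2 TPM.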

How the data were processed

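Input RNA of young adult BS1080 and N2 worms was sequenced, 1 library each. The labels name a stranded TruSeq kit for total RNA and the study's methods a TruSeq RNA kit of another version, so whether strand was kept is unsettled. The authors demultiplexed reads with bcl2fastq and pseudo-aligned them as single-end reads with kallisto 0.43.1 to the WBcel235 transcriptome, with the transgene added for BS1080. They deposited 1 table per library with the length, effective length, estimated count and TPM of each transcript. The deposited estimated counts are not normalized and need not be whole. The deposited TPM are divided by effective length and add up to 1000000 with ribosomal RNA included. The strand setting is not given in the sources used here.

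Here 22 ribosomal RNA genes and 3 overlapping entries were removed, TPM were rescaled, and counts and TPM were summed per gene. Symbols came from a table matching 43693 of 46748 identifiers. Where copies share a symbol (62 tested genes), the sequence name is used. Ratios are BS1080 over N2, with Poisson intervals on the log scale. With 1 library a side no test was made. The reads carried no molecular identifiers, so intervals cover counting error only and not amplification. The comparison was tested on simulated counts. Members, lists and named genes were chosen with earlier results of these data known. Named were *gld-1*, *lin-41*, *alg-1*, *tbb-2* and *unc-119*, the 12 protein-coding genes with the bounds farthest above and below 1, the members of 46 gene lists with most counts or past 2-fold, and genes with at least 50 counts in 1 library and at most 3 in the other. The restriction to genes of at least 700 nt, the rescaling over them, the comparison with genes of the same level and the left end of X were added after seeing the data. The 7 elutions were not used. Python 3.11.15, numpy 2.4.6, pandas 2.3.3 and matplotlib 3.10.9 were used.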

Additional observations from a re-analysis of the deposited data

How the results depend on the processing

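No paired analysis was possible because each strain had 1 library and the labels give no replicate numbers. Most settings moved all ratios by a near-common factor, with medians of all genes between 0.981 and 1.16. Single genes past 2-fold could therefore hardly change direction. None of those tried did, which lends them no support.

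In CPM, 815 genes were at least 2-fold higher and 64 at most 0.5-fold, against 575 and 167 in TPM, with a squared correlation of 0.970, 92.4% within 2-fold, a median ratio of 1.15 and a *gld-1* ratio of 1.15. With TPM rescaled over genes of at least 700 nt, 683 were higher and 66 lower, with a median of 1.16 and a *gld-1* ratio of 0.994. Without the 20 most abundant genes of either library, 845 were higher and 106 lower, 92.1% were within 2-fold, the median was 1.12 and the *gld-1* ratio 0.954. With a common effective length the median was 0.981 and the *gld-1* ratio 0.824, and with ribosomal RNA kept the median was 0.982.

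A mean of at least 10 TPM left 152 higher and 51 lower genes, a squared correlation of 0.919, 97.1% within 2-fold and a median of 0.971. No TPM filter gave 92.5% and a median of 1.01. Adding 1 TPM to both levels gave 314 higher, 83 lower and 96.6%. Genes of at least 700 nt gave 330 higher, a squared correlation of 0.968 and 95.6%. A 4-fold threshold gave 107 higher and 21 lower, and the whole interval beyond 2-fold 93 and 38. The *gld-1* ratio was 0.478 without the transgene and 0.382 for the transgene alone.

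In CPM 19 of 41 list medians crossed a ratio of 1 and after the rescaling 18 of 39, as the median of all genes moved by 0.20 and 0.21 on the log2 scale. Measured relative to that median, 2 of 41 list medians (neuron markers and neuropeptides) changed side of 1 in CPM and 4 of 39 after the rescaling. Relative to genes of at least 700 nt at the same level 12 of 39 did, among them the oocyte, eggshell, germline and GLD-1 target lists, while the sperm, collagen, vitellogenin, proteasome, actin and mitochondrial lists kept theirs. Depth limits the genes of 1 to 2 TPM most, and what differs between 2 cultures of 1 strain was not measured.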
